A study of Felis catus with 3 samples.

Results

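Membrane trafficking genes were examined in 3 lines of noninduced feline adipose-derived mesenchymal stem cells (ASCs), the adherent stromal cells that grow out of digested fat. The members were the genes of the study's symbol table whose symbol begins with RAB followed by a digit, VPS, SNX, ARF, ARL, SEC followed by a digit, STX, VAMP, TRAPPC, EXOC or CHMP, with a COP subunit symbol, or with a subunit symbol of the adaptor complexes AP-1 to AP-4. The rule was met by 36 genes of 21529 in the files, and 33 of them are the members described here. Symbols were available for 1811 genes, so many genes of the same families were not analysed here, and no VAMP or CHMP gene was among the members. In the RefSeq annotation of a later cat assembly, 297 protein-coding genes have a symbol of this form, and 10.8% of them were members.

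Each line came from the fat of a different cat, was grown in MEMα with fetal bovine serum and was harvested untreated at passage 3 to 4. The study's own legend for these data gives passage 3. There was 1 library per line and a single condition. The libraries were strand-specific and made from poly-adenylated RNA, and expression was given as FPKM, a fragment count scaled by transcript length and by library size, which may be compared between genes because it is per length. Lines are called Feline ASC 1, 2 and 3, in the order of their records. No repeat library of a line was sequenced, so no test was possible and the spread given is the SD over the 3 lines, in which cat, culture and library cannot be told apart.

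Cells move proteins and lipids between compartments in vesicles and tubules. Coat complexes shape the carrier and choose its cargo, small GTPases of the ARF, ARL and RAB families mark each membrane and recruit effectors to it, tethering complexes catch the carrier at its target, and SNARE proteins fuse the membranes. Most of this machinery is used by every cell, whereas some paralogs serve regulated secretion in neurons and gland cells. Stromal cells are known as strong secretors of collagen and soluble mediators. Collagen and the mediators that are secreted proteins leave the endoplasmic reticulum (ER) through this pathway.

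FPKM summed to between 621797 and 688297 per library, with the highest sum in Feline ASC 2, and the number of genes above 0 ranged from 14151 to 14356. The study states an approximate sequencing depth per sample, but the files hold no fragment counts for a library or a gene. Of 30 cell type markers listed, 9 had a symbol. The stromal markers ENG and COL5A1 summed to between 251 and 597 FPKM per line, compared with 0.598 to 1.96 FPKM for the 4 leukocyte markers, with CD2 at 0 in every line. The only endothelial marker, TEK, was at 0.0595 FPKM or less. The smooth muscle genes SMTN and LMOD1 summed to 72.1, 221 and 78.3 FPKM in Feline ASC 1, 2 and 3, and no neuronal marker had a symbol.

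As a group, the trafficking genes were expressed at levels well above the typical gene. The median over members of the mean level was 23.9 FPKM, against 1.57 FPKM over all genes and 5.68 FPKM over the genes with a symbol. A total of 19 members (57.6%) reached 15 FPKM in all 3 lines, compared with 22.1% of all genes and 30.4% of the genes with a symbol. Values above 0 in every line were found for 30 members (90.9%), against a background of 62%. Only COPG1 and RAB1A reached 100 FPKM in each line, and 2 of 33 genes (6.06%) stands near the background of 3.59%. In at least 1 line, 4 members (12.1%) reached 100 FPKM, against 4.97% of all genes.

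**Figure D1:**
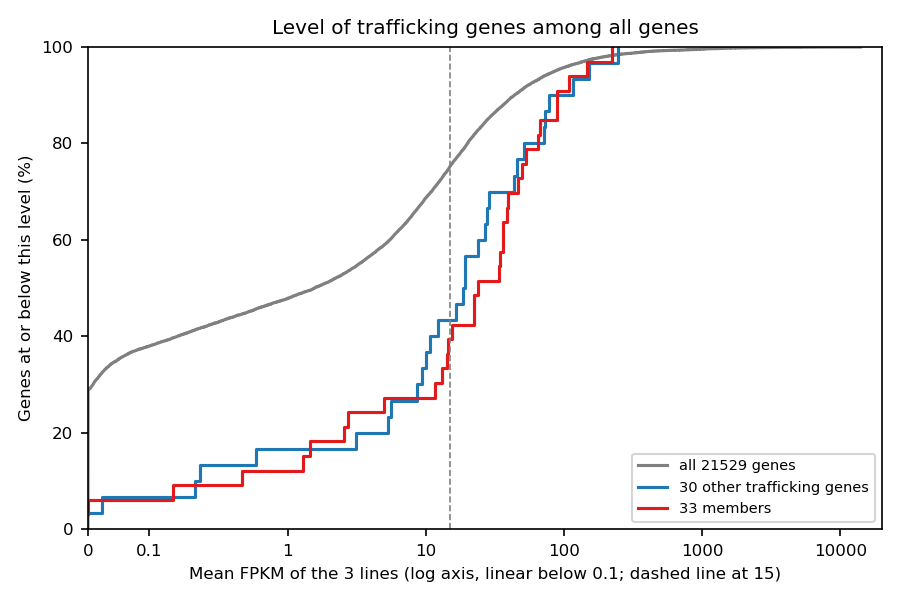
Cumulative percentage of genes (y axis) at or below a mean FPKM over the 3 lines (x axis, log scale that is linear below 0.1), for the 33 members, for 30 other trafficking genes and for all 21529 genes. The curves of both trafficking lists lie to the right of all genes, with medians of 23.9, 19.0 and 1.57 FPKM, and meet it near the top, above 100 FPKM.

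The order of the levels was only partly resolved. When the members were ranked by mean FPKM, 10 of 32 neighbouring pairs had ranges over the lines that did not overlap. These included the top of the order, in which RAB1A was above COPG1, COPG1 above COPB2, and COPB2 above VPS35 in every line. The last of these gaps was narrow, from 94.97 FPKM as the lowest value of COPB2 to 94.3 FPKM as the highest of VPS35. VPS35 and SEC31A, the next pair in the order, could not be separated, since VPS35 was the higher in 2 of the 3 lines. The 10 pairs also took in RAB37 above RAB3C, which was at 0 in every line.

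**Figure D2:**
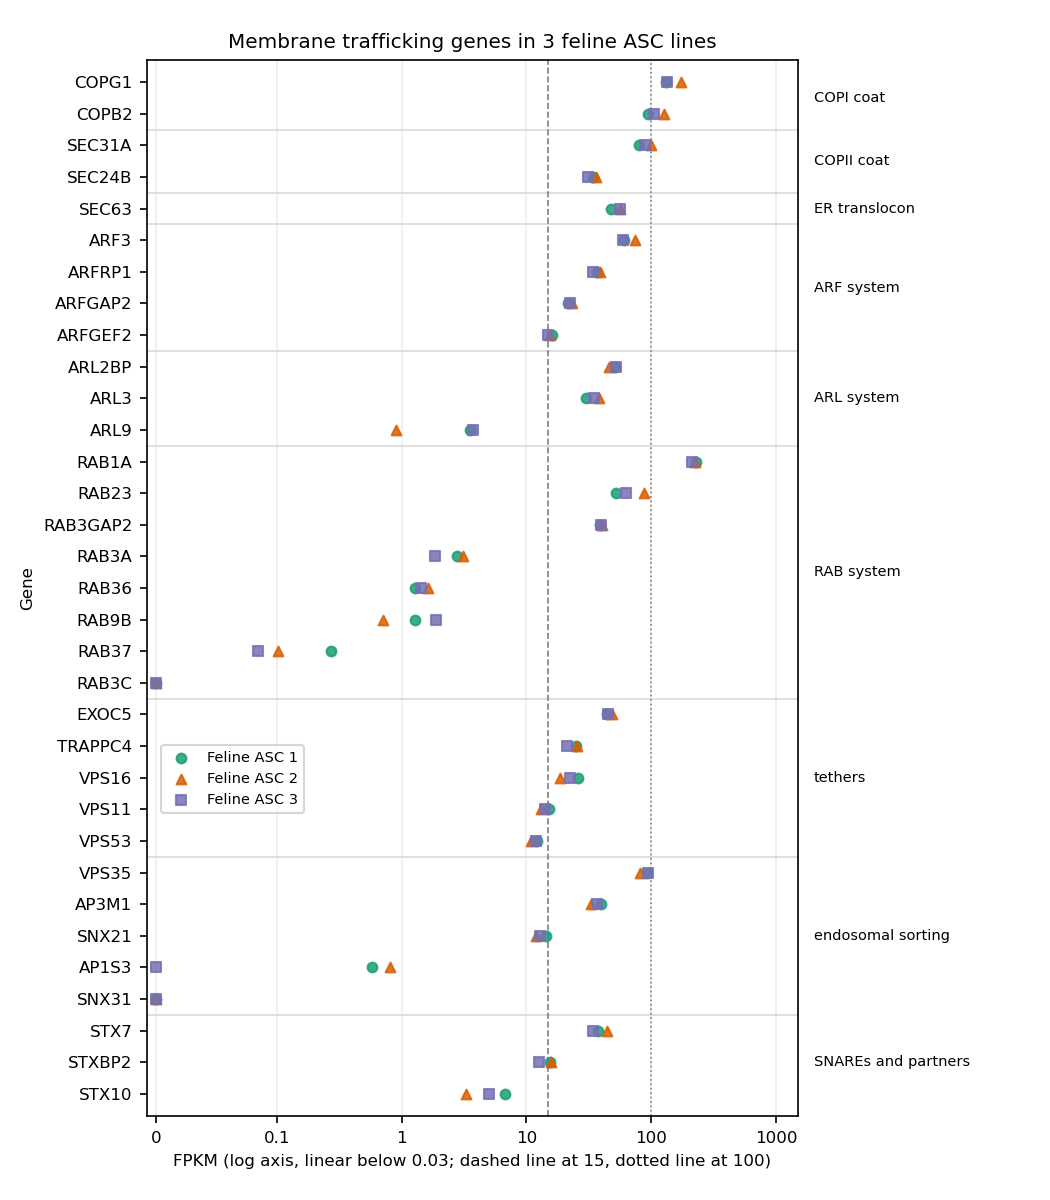
FPKM of each of the 33 members (x axis, log scale that is linear below 0.03) in Feline ASC 1 (circles), 2 (triangles) and 3 (squares), grouped by role; the dashed line is at 15 FPKM and the dotted line at 100 FPKM. RAB1A is the highest at 214 to 228 FPKM, most ARF and ARL genes lie between the lines at 15 and 100, and RAB3C and SNX31 are at 0 in every line.

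The coat subunits were among the abundant members, and all 4 reached 15 FPKM in every line. COPI coats vesicles that return from the Golgi to the ER and move within the Golgi, and COPII coats those that leave the ER. COPG1 (ENSFCAG00000002080), the gamma subunit of COPI (locus A2:55963516-55983623 of Felis Catus 8.0), had 131, 173 and 133 FPKM in Feline ASC 1, 2 and 3, which averaged 146 ± 23.5 FPKM (SD, n = 3). COPB2 (ENSFCAG00000001465), the beta-prime subunit, had 94.97, 126 and 105 FPKM, with a mean of 109 ± 15.9. For both subunits Feline ASC 2 was the highest line. The ratio of COPG1 to COPB2 stayed between 1.26 and 1.38 over the lines. The locus of COPB2 (C2:123029235-123081653) was given jointly with MRPS22, a mitochondrial ribosomal protein gene listed at 26.1 to 34.1 FPKM, and how reads were divided between them was not tested.

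Of the COPII coat, SEC31A (ENSFCAG00000001563), a subunit of the outer cage, had 79.4, 100.05 and 88.6 FPKM. SEC24B (ENSFCAG00000000069), an inner coat subunit that binds cargo, had 34.0, 36.3 and 31.4 FPKM. The cage subunit was thus 2.33 to 2.82 times the level of this cargo adaptor, which has paralogs that were not analysed here. Feline ASC 2 was again the highest line for both genes. SEC63 (ENSFCAG00000002253), which meets the symbol rule but acts at the protein translocation channel of the ER membrane, had 47.3, 55.7 and 56.1 FPKM.

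The ARF system controls coat assembly at the Golgi. ARF3 (ENSFCAG00000000088), a GTPase that recruits coats, led it with 60.7, 73.8 and 59.8 FPKM (64.8 ± 7.83, SD, n = 3). ARFRP1, an ARF-related GTPase of the trans-Golgi, had 33.9 to 38.8 FPKM, and ARFGAP2, which stimulates GTP hydrolysis on ARF at COPI-coated membranes, had 21.4 to 23.2 FPKM. ARFGEF2, an exchange factor that activates ARF at the trans-Golgi, was lowest, at 16.0, 15.3 and 14.9 FPKM, and missed the threshold of 15 FPKM only in Feline ASC 3. The ranges of these 4 genes did not overlap, so their order held in all lines. Reads of ARF3 may be shared with close paralogs such as ARF1, and how such reads were assigned is not given in the sources used here.

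Among the genes of the ARF-like (ARL) system, ARL2BP, a binding partner of ARL2, had 45.6 to 52.2 FPKM, and ARL3, a GTPase that releases lipidated cargo in primary cilia, had 29.8 to 38.2 FPKM. ARL9 (ENSFCAG00000001942) was far below them at 3.52, 0.902 and 3.74 FPKM. Feline ASC 2 was low for ARL9, at 0.248 times the mean of the other lines, and this was the widest ratio of any member on the FPKM + 1 scale (2.49). Without fragment counts, the counting error of the ARL9 values could not be given.

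The members of the RAB system ranged from abundant genes to genes with a few FPKM or less. RAB1A (ENSFCAG00000002536, A3:84933782-84962322), which acts between the ER and the Golgi, was the highest of all members, with 228, 222 and 214 FPKM (221 ± 6.99, SD, n = 3). Only 1.78% of all genes had a higher mean, and the coefficient of variation (CV) over the lines was 3.16%. RAB3GAP2, a non-catalytic subunit of the RAB3 GTPase-activating complex, varied least, at 38.9, 40.5 and 39.4 FPKM (CV 2.06%). RAB1A has a close paralog, RAB1B, which was not analysed here and could share reads with it.

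RAB23 (ENSFCAG00000001010, B2:57090802-57115313), a negative regulator of Hedgehog signaling, had 52.5, 87.8 and 62.2 FPKM. Feline ASC 2 was above both other lines, at 1.53 times their mean, and RAB23 was the only member of the 19 reaching 15 FPKM throughout whose highest line was 1.5-fold or more above the lowest (ratio of FPKM + 1 of 1.66). Among all genes at that level, 16.7% passed the same ratio.

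The remaining RAB genes were low. RAB3A (ENSFCAG00000002479), best known for synaptic vesicle and granule release, had 2.78, 3.08 and 1.84 FPKM, and its paralog RAB3C was at 0 in every line. RAB36 had 1.28, 1.63 and 1.44 FPKM, and RAB9B, a late endosomal RAB, had 1.29, 0.713 and 1.89 FPKM. RAB36 and RAB9B overlapped and were not separated. RAB37, a RAB linked to secretory granules, was lower still at 0.273, 0.102 and 0.0705 FPKM. The partner gene RAB3GAP2 was therefore 13.2 to 21.4 times the level of RAB3A, the measured RAB3 gene with values above 0.

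Tethers were present at moderate levels. EXOC5, a subunit of the exocyst that tethers carriers at the plasma membrane, had 44.4 to 48.8 FPKM and varied little (CV 5.06%). TRAPPC4, a core subunit of the TRAPP complexes that activate RAB1, had 24.9, 25.6 and 21.3 FPKM. VPS16 and VPS11, core subunits shared by the HOPS and CORVET tethers of lysosomes and endosomes, had 25.7, 18.4 and 22.5 FPKM and 15.3, 13.2 and 13.95 FPKM. VPS53, of the GARP complex that tethers endosome-derived carriers at the Golgi, had 12.2, 10.8 and 11.9 FPKM. VPS16 exceeded VPS11 by 1.40 to 1.69 times although both belong to the same core. TRAPPC4 and VPS11 are neighbours on chromosome D1, 41339 bases apart. Their highest lines differed as deposited (Feline ASC 2 and 1), but in TPM Feline ASC 1 was the highest line of both.

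For sorting at endosomes, VPS35 (ENSFCAG00000001383, E2:27157675-27180483), the backbone subunit of the retromer that retrieves receptors from endosomes, had 92.5, 81.5 and 94.3 FPKM (89.5 ± 6.95, SD, n = 3). It was the most abundant VPS gene, at 3.59 to 4.42 times VPS16. AP3M1, the ubiquitous medium subunit of the AP-3 adaptor that sorts lysosomal membrane proteins, had 39.3, 32.9 and 36.8 FPKM, and the sorting nexin SNX21 had 14.3, 11.9 and 12.9 FPKM. In each of these genes Feline ASC 2 was the lowest line. SNX31 was listed at 0 in every line, and AP1S3, a small-subunit variant of the AP-1 adaptor, had 0.581, 0.812 and 0 FPKM.

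Among the syntaxins, STX7 (ENSFCAG00000002292), a SNARE of late endosome and lysosome fusion, had 37.2, 44.4 and 34.4 FPKM. STX10, a trans-Golgi SNARE, had 6.71, 3.28 and 4.97 FPKM. Their ranges did not overlap, and STX7 was at least 5.54 times STX10 in each line. STXBP2, a Sec1/Munc18 protein that binds syntaxins, had 15.4, 15.9 and 12.5 FPKM, and missed the threshold of 15 FPKM only in Feline ASC 3.

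A total of 4 members (12.1%) did not exceed 1 FPKM in any line, compared with 46.1% of all genes. They were RAB3C, RAB37, SNX31 and AP1S3. No conclusion on which line expressed more of these genes can be drawn at these levels, and values of 0 cannot be read as absence.

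By the share over all members and by the median CV, the spread between lines was like that of other genes. The highest line was at least 1.5-fold above the lowest, on FPKM + 1, for 5 members (15.2%), against a background of 15.5% of all genes. They were ARL9, AP1S3, STX10, RAB9B and RAB23, and all except RAB23 were under 10 FPKM on average. With Feline ASC 2 left out, only AP1S3 remained (3.03%, against 5.03% of all genes). Without Feline ASC 1 or without Feline ASC 3 there were 3 (9.09%), against 10.7% and 10.9% of all genes. These shares mix levels, since 46.1% of all genes but 12.1% of the members were at 1 FPKM or less in all lines. At 15 FPKM or more throughout, 1 of 19 members (5.26%) passed the ratio with all lines kept, against 16.7% of all such genes. Over the 19 members that reached 15 FPKM throughout, the median CV was 9.39%, against 9.72% for all 4755 such genes. It dropped to 5.40% without Feline ASC 2, against 6.17% for all genes. The median absolute log2 ratio of these members was 0.11 for lines 1 and 3, 0.19 for lines 2 and 3, and 0.24 for lines 1 and 2. Over all genes at that level the corresponding values were 0.12, 0.18 and 0.19.

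As for all genes, the larger differences were those of Feline ASC 2 from the other lines. Of the same 19 members, 13 were highest in Feline ASC 2 (68.4%), against a background of 43.4%, and 4 were lowest there, against 34.4%. After rescaling each line to the same sum (TPM), the threshold was set at 15 TPM, which took in more genes (24 members and 6207 of all genes). Of these 24 members, 7 were highest in Feline ASC 2 and 12 were lowest, with backgrounds of 25.8% and 54.1%. In TPM 15 (62.5%) were highest in Feline ASC 1, against 41.9% of all genes, and 2 (8.33%) in Feline ASC 3, against 32.3%. Rescaling lowers Feline ASC 2 by 0.15 on the log2 scale relative to Feline ASC 1, which is about the size of many of these differences. After quantile normalization, 20 members were at 15 or more throughout. Of these, 12 (60%) were highest in Feline ASC 2 and 5 (25%) were lowest, with backgrounds of 35.7% and 41.4%. The count thus depends on the scale.

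**Figure D3:**
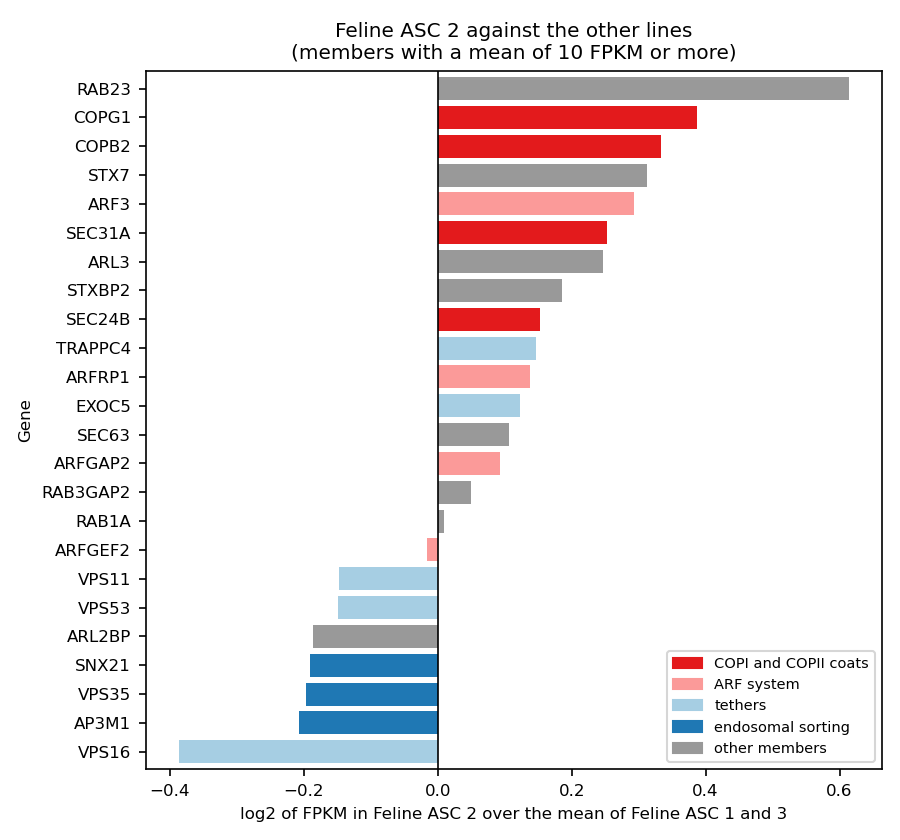
Log2 of FPKM in Feline ASC 2 over the mean of Feline ASC 1 and 3 (x axis) for the 24 members with a mean of 10 FPKM or more (y axis), colored by role. Of these, 16 lie above 0, led by RAB23, COPG1 and COPB2, and 8 lie below 0, led by VPS16 and AP3M1.

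The coats, the endosomal sorting genes and the tethers were picked out for Feline ASC 2 after the values were seen, so their counts are a description. All 4 coat subunits (COPB2, COPG1, SEC24B and SEC31A) were highest in Feline ASC 2, at 1.11 to 1.31 times the mean of the other lines. They were highest in 4 of 4 cases after quantile normalization and in 3 of 4 in TPM, where SEC24B was highest in Feline ASC 1. Of the endosomal sorting genes, the 3 with a mean of 10 FPKM or more (VPS35, AP3M1 and SNX21) were lowest in Feline ASC 2, at 0.866 to 0.876 times, whereas AP1S3, which stayed under 1 FPKM, had its highest value there. The tethers were divided. VPS11, VPS16 and VPS53 were lowest in Feline ASC 2, at 0.765 to 0.902 times, and EXOC5 and TRAPPC4 were highest there, at 1.09 and 1.11 times. In these 2 roles together, 6 of 8 genes with a mean of 10 FPKM or more were lowest in Feline ASC 2 as deposited and 6 of 8 after quantile normalization. In TPM 7 of 8 were lowest, but TPM lowers Feline ASC 2 relative to both other lines, so a gene lowest there as deposited stays lowest by construction. Over all genes with a mean of 10 FPKM or more, 42.7% were highest and 35.5% lowest in Feline ASC 2 as deposited. Over all genes at 15 or more throughout after quantile normalization, these shares were 35.7% and 41.4%. Over those at 15 TPM or more throughout, they were 25.8% and 54.1%. The size of these differences is modest, and without repeat libraries it cannot be set against technical error. The smooth muscle and stromal marker sums were also highest in Feline ASC 2, at 221 and 597 FPKM, and their part in the result was not tested.

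**Figure D4:**
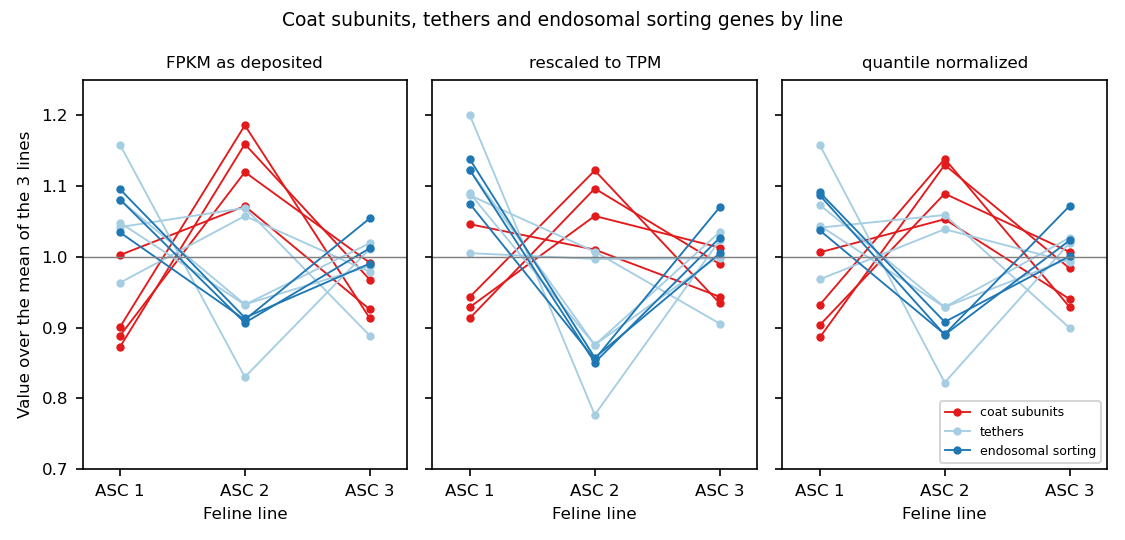
Value of each gene in each line over the mean of its 3 lines (y axis), for the 4 coat subunits and for the 5 tethers and 3 endosomal sorting genes with a mean of 10 FPKM or more, as deposited (left), in TPM (middle) and after quantile normalization (right); lines join the values of the same gene. In Feline ASC 2 the coat subunits are above 1 on every scale, SEC24B by the least, the endosomal sorting genes are below 1, and the tethers lie on both sides as deposited.

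Other members lay on either side. STX7, a SNARE of late endosomes, was highest in Feline ASC 2 on every scale, at 1.24 times the mean of the other lines as deposited. ARL2BP was lowest in Feline ASC 2, at 0.879 times. RAB1A, in the same ER to Golgi step as the coats, was at 1.01 times, and ARFGEF2 at 0.989 times.

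Among 30 other trafficking genes with a symbol, 16 reached 15 FPKM throughout and the median was 19.0 FPKM. These genes were listed by name, but with earlier results of these data known. The highest were KDELR3 and KDELR1, receptors that return ER proteins from the Golgi. KDELR3 (ENSFCAG00000002816) had 220, 290 and 232 FPKM, and KDELR1 (ENSFCAG00000000970) had 144, 156 and 156 FPKM. TMED10, a cargo receptor of the p24 family, had 103, 114 and 132 FPKM. These 3 were the genes of the list that reached 100 FPKM throughout.

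The higher level of the coat subunits in Feline ASC 2 did not extend evenly to these genes. SAR1B, the GTPase that starts COPII assembly, had 71.2, 73.8 and 73.5 FPKM, and GBF1, which activates ARF for COPI, had 25.7, 27.2 and 27.6 FPKM. Relative to the mean of the other lines, Feline ASC 2 was at 1.28 times for KDELR3, 1.04 for KDELR1, 1.02 for SAR1B and GBF1, and 0.972 for TMED10. In the whole list, 4 of those 16 genes were highest in Feline ASC 2 and 6 were lowest there, against 43.4% and 34.4% of all genes at that level. Of the 19 genes of the list at 15 TPM or more throughout, 3 were highest and 14 lowest there in TPM, against 25.8% and 54.1%. As examples of genes acting at endosomes, IGF2R (79.0, 74.5 and 79.0 FPKM), the receptor for lysosomal enzymes, and APPL2 (18.8, 14.8 and 16.0 FPKM), an early endosomal adaptor, were lowest in Feline ASC 2. AP5M1 (8.11, 9.91 and 8.07 FPKM), a subunit of the AP-5 adaptor, was highest there. Other genes of the list also lay on either side. CLINT1 (38.5, 54.7 and 42.9 FPKM) was highest in Feline ASC 2, whereas BIN1 (34.0, 21.9 and 26.9 FPKM) and RUFY1 (11.9, 8.44 and 9.58 FPKM) were lowest. KIAA1033 (20.1, 19.7 and 18.3 FPKM) was neither highest nor lowest there as deposited. At the low end, LMAN1L was listed at 0 in every line, and CLTCL1, SYT2 and SYNGR4 were at 0.473 FPKM or less.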

How the data were processed

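Reads were aligned by the authors with HISAT (cat assembly Felis Catus 8.0), gene levels were estimated with Cufflinks, and Cuffnorm normalized them across the 3 libraries. The deposited unit is FPKM per Ensembl gene. Program versions and the annotation release were not given in the sources used here. Quantification status was OK for all 21529 genes. Symbols and loci (as listed, the span Cufflinks assigned) came from the study's symbol table, of which 1997 rows were available.

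Levels, SD and CV over lines, and the ratio of highest to lowest line (pseudocount 1 FPKM) were computed from the deposited FPKM values. Python 3.11.15, pandas 2.3.3 and numpy 2.4.6 were used, without a filter on low values. The computation was tested on simulated data with less spread between lines than the real data. That test therefore checks the computation and not how reliable the calls are. Plots used matplotlib 3.10.9. The thresholds of 15 and 100 FPKM are the study's. All members are named, and 3 genes that meet the symbol rule are not reported here. The members, roles and lists were chosen with earlier results of these data known. The files hold no fragment counts, and the study states the sequencing depth only approximately, so no counting intervals are given. Alternatives tried were TPM, quantile normalization, other thresholds, folds and pseudocounts, a filter on low values, leaving out SEC63, ARL3 and ARL2BP, and leaving out each line. RefSeq symbols matched 32 of 33 members.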

Additional observations from a re-analysis of the deposited data

How the results depend on the processing

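Counts were compared with a limit of 1.5 times and medians with 1 SD. This SD was 1.84 FPKM over the 3 line medians, and 2.23 percentage points over the CVs of the 3 pairs of lines. Medians and CVs with a line left out were thus compared with limits drawn from the same lines. Of 65 values under alternatives, 54 stayed within these limits. The 2 members at 100 FPKM or more became 1 with a threshold 1.5 times higher, 5 with one 1.5 times lower and 5 in TPM. Leaving out a line gave 2 to 3. The median of 23.9 FPKM became 36.9 in TPM and 34.2 over genes with a mean of at least 1 FPKM. The median CV of 9.39% ranged from 5.40% without Feline ASC 2 to 9.51% without Feline ASC 1. The 5 members differing 1.5-fold or more became 7 with a pseudocount of 0.1 FPKM (RAB3A and RAB37 were added), 1 at a ratio of 2, and 1 to 3 when a line was left out. The 13 of 19 members highest in Feline ASC 2 became 7 of the 24 at 15 TPM or more. After quantile normalization they were 12 of 20, within the limit. Why these values moved was not tested, except that TPM multiplies every value and fewer lines can only narrow a ratio. No paired analysis was possible because there is a single group. The coat subunits and the tethers with endosomal sorting genes were picked out, and their alternatives chosen, after seeing the data. With no fragment counts in the files, the counting error of values under about 1 FPKM could not be given.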
